A study of Mus musculus with 39 samples.

Results

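The 8 B lymphomas with the highest Bcl6 level were set against the 8 with the lowest, out of 39 tumours of Eµ-myc mice. A tumour counted as a B lymphoma if its level of Pou2af1, a B cell coactivator gene, was at 8 or more on the log2 scale, which held for 33 tumours. These were ranked by Bcl6 on the probe set with the highest mean, leaving 17 B lymphomas in neither group and 6 tumours outside the ranking. The groups were thus selected on Bcl6 and Pou2af1, whose levels are given as a description with no test.

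The study took lymphoma tissue from Eµ-myc transgenic mice with signs of tumour or illness, froze it, extracted total RNA and hybridised 1 array per tumour. In this model an immunoglobulin heavy chain enhancer drives Myc in cells of the B lineage. The cell of origin of each tumour was not tested, and 6 of the 39 had Pou2af1 under 8. All tumours of both groups carry the same genotype label, Eµ-myc, and the same tissue label, lymphoma tumour. The labels used here give no strain, age, treatment, batch or healthy control, and do not state whether 1 mouse gave more than 1 tumour. The p-values therefore describe the spread among these arrays, part of which may be technical. In bulk tissue, fewer cells of a type and less RNA per cell cannot be told apart.

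Bcl6 encodes a transcriptional repressor of the BTB zinc finger family. In germinal centre B cells it holds back plasma cell differentiation, cell cycle arrest and responses to DNA damage, and it works through corepressors such as SMRT, NCOR and BCOR. Its repression of Prdm1, the gene of the plasma cell regulator Blimp-1, is opposed by Blimp-1, which represses Bcl6 in turn. In B cell precursors, interleukin 7 acting through STAT5 keeps Bcl6 low, and T follicular helper cells need Bcl6 as well.

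Among the 8 Bcl6-high tumours, Bcl6 was 11.14 in tumour 18, 10.91 in tumour 27, 10.23 in tumour 2, 7.71 in tumour 13, 7.64 in tumour 7, 7.43 in tumour 31, 7.31 in tumour 32 and 7.13 in tumour 22. In the 8 Bcl6-low tumours it was 5.43 in tumour 11, 5.41 in tumour 16, 5.39 in tumour 10, 5.38 in tumour 34, 5.29 in tumour 15, 4.97 in tumour 36, 4.85 in tumour 14 and 4.77 in tumour 17. The Bcl6-high group therefore held 3 tumours far above the other 30 of the 33 B lymphomas and 5 that continued the gradual ranking. At the upper border, tumour 22 was included at 7.13 and tumour 20 left out at 7.12, and at the lower border tumour 11 was included at 5.43 and tumour 28 left out at 5.60.

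Tumour 27 stood apart from the other 38 tumours in its sex-linked genes, with Xist, expressed from the inactive X chromosome, at 10.16 together with the Y-linked genes Eif2s3y at 10.13 and Kdm5d at 7.88. In each other tumour, either Xist was at most 6.24 or Eif2s3y at most 3.23. Whether its material is mixed was not tested, and none of the 4 sex-linked genes measured was called between the groups. Without tumour 27, 33 genes were called, all of them among those called with it. Of 46 called genes followed through such changes of tumours or settings, 11 were among the 33. Gimap4 and Gimap8, called genes named below, were not followed in this way.

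The second Bcl6 probe set separated the same 3 tumours: tumour 18 read 8.17, tumour 27 read 8.14 and tumour 2 read 6.63. The other 5 Bcl6-high tumours read 5.03 to 5.43 on it, against 4.10 to 5.01 in the Bcl6-low tumours. The 17 tumours of neither group read 4.26 to 5.10 on it, so they overlapped both. A ranking by the second probe set kept 7 of the 8 Bcl6-high tumours in their group but only 4 of the 8 Bcl6-low tumours. Among the 6 tumours with Pou2af1 under 8, Bcl6 spanned 6.92 to 9.96 on the ranking probe set, and the highest of them, tumours 8 and 6, read 7.06 and 6.76 on the second one, above tumour 2. For Pou2af1, the lowest B lymphoma was at 10.59 and the highest tumour below the minimum at 6.81.

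**Figure D1:**
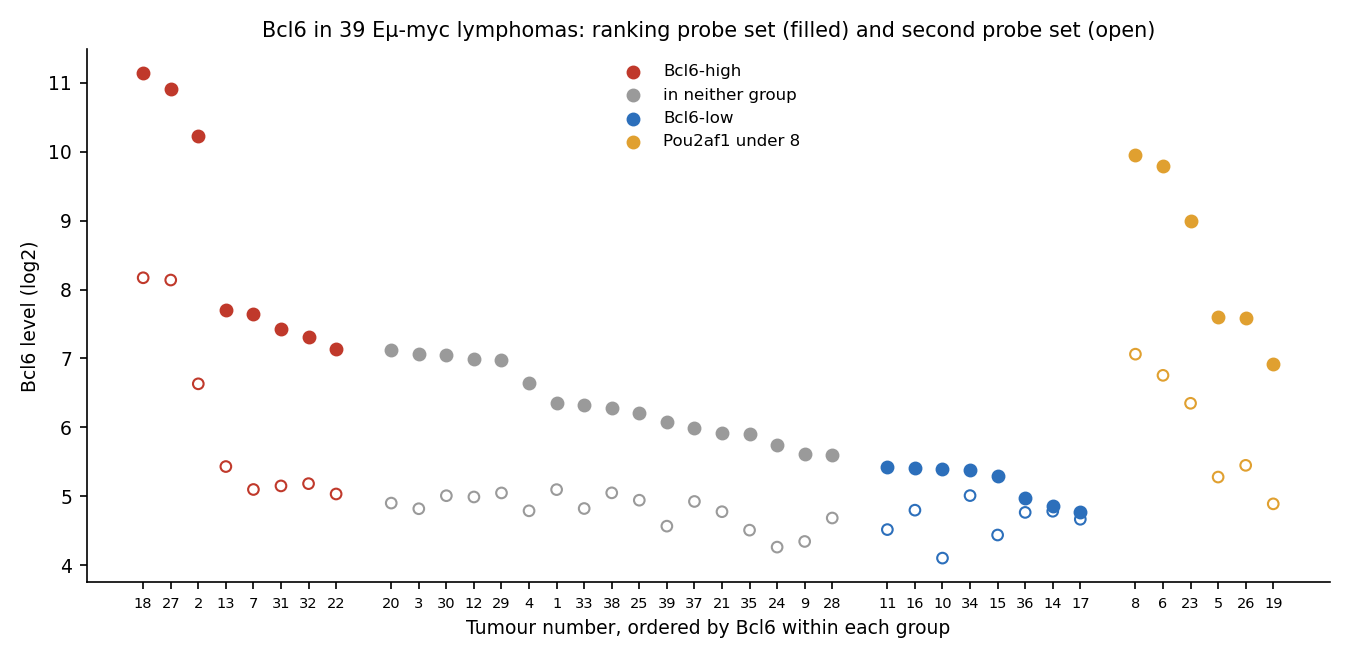
Bcl6 level (log2) in each of 39 tumours, ordered by level within 4 groups. Filled points are the probe set that ranked the tumours and open points the second Bcl6 probe set. Tumours 18, 27 and 2 stand at 10.23 to 11.14, while the other 5 Bcl6-high tumours lie at 7.13 to 7.71 beside the upper end of the tumours in neither group.

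To show the sequence next to the gene that ranked the tumours, a Bcl6 promoter window of RefSeq (assembly GRCm38.p6, minus strand, 250 bases before to 50 bases after a transcript start) is printed with its STAT-type palindromes in capitals, which are the letters TTCNNNGAA. This palindrome is the type of site that STAT proteins bind, and the BCL6 core motif searched here, TTCCTAGAA, is one form of it.
Bcl6, chr16:23981234-23981533: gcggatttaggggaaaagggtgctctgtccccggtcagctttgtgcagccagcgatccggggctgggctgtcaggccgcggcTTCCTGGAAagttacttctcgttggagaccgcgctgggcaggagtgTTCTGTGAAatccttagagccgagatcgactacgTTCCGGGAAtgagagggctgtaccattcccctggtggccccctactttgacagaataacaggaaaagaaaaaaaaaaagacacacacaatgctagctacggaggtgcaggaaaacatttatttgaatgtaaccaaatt
The 3 palindromes begin at positions -168, -122 and -88, counted so that the window begins at -250. A second Bcl6 promoter window, chr16:23988803-23989102 on the same strand, held 1 palindrome at -118. Neither window held the core motif. Both strands were searched for each motif.

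Among the genes that rose in Bcl6-high tumours were the plasma cell genes Sdc1, Prdm1 and Xbp1, the T cell genes Cd3d and Cd28, the natural killer cell gene Klrd1 and the stromal gene Clu. Among those that fell were Mpp3 and Gfi1. Of 18191 genes tested with limma, 328 passed an adjusted p of 0.05 (1.8% of genes), 220 of them higher in Bcl6-high tumours (1.21%) and 108 lower (0.594%). The median difference over all genes was -0.04 on the log2 scale, on which a difference of 1 is a 2-fold change. At an unadjusted p under 0.05, 1983 genes were higher (10.9%) and 2100 lower (11.5%), and for 148 genes the 2 groups did not overlap (0.814%).

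The number of called genes depended heavily on single tumours. Without 1 Bcl6-high tumour there were 33 calls (tumour 27), 116 (tumour 32), 138 (tumour 18), 347 (tumour 22), 422 (tumour 2), 571 (tumour 7), 679 (tumour 13) or 843 (tumour 31). Without 1 Bcl6-low tumour there were 7 (tumour 17), 18 (tumour 14), 21 (tumour 10), 42 (tumour 15), 58 (tumour 36), 131 (tumour 16), 139 (tumour 11) or 148 (tumour 34). Without tumours 2, 18 and 27 there were 63 calls (0.346% of genes), 51 of them shared with the 328. Of the 46 called genes followed, 12 were among the 63: Sdc1, Dsg2, Klrd1, Clu, Cd28, Traf1, Klhl6, Mpp3, Mapk12, Cabcoco1, Prkag3 and Btrc. The median size of the difference among the 220 was 2.24 for the 3 tumours highest in Bcl6 and 1.19 for the other 5, and among the 108 it was 0.95 and 0.62.

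Sdc1, which encodes the plasma cell surface proteoglycan syndecan 1 (CD138), had the smallest adjusted p of the genes named here. Its log2 level had a lowest value of 7.24, a median of 8.79 and a highest value of 10.10 in Bcl6-high tumours, against 4.61, 5.78 and 7.31 in Bcl6-low tumours. Only tumour 18 among the Bcl6-high tumours fell inside the Bcl6-low range, and tumour 11 was the highest Bcl6-low tumour. Sdc1 averaged 8.82 ± 0.92 in Bcl6-high and 5.71 ± 0.81 in Bcl6-low tumours (SD, n = 8 each), a difference of 3.12 (SE 0.40, limma adjusted p = 0.0064). Its mean was 8.27 in the 3 tumours highest in Bcl6 and 9.16 in the other 5 Bcl6-high tumours. Its slope on Bcl6 in the 17 tumours of neither group was 0.13 (SE 0.32), in log2 units per log2 unit of Bcl6.

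Of 15 plasma cell genes tested, 4 rose (Jchain, Sdc1, Prdm1 and Xbp1), none fell, and 9 were higher at an unadjusted p under 0.05. Means were higher in Bcl6-high tumours for 12 of the 15 and lower for 3. The 3, named after their values were seen, were Slamf7, Fkbp11 and Ighm. In tumour 18, Ighm read 8.11, against 12.74 to 14.73 in the other 15 tumours of both groups. The median difference of the list was 0.94, and 0.58 over the other 5 Bcl6-high tumours alone. Prdm1, the gene of Blimp-1, had 5.24, 7.80 and 9.91 as its lowest, median and highest levels in Bcl6-high tumours, against 4.62, 5.21 and 5.40 in Bcl6-low tumours. It was highest in tumour 18, the tumour highest in Bcl6, and tumour 31 was the single Bcl6-high tumour within the Bcl6-low range. The difference was 2.37 (SE 0.57, limma adjusted p = 0.047), but the call was lost in 20 of 31 alternatives. Without tumours 2, 18 and 27 it was 1.39 (SE 0.43, limma adjusted p = 0.16).

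Xbp1, the regulator of immunoglobulin secretion in plasma cells, had 10.80, 12.16 and 13.40 in Bcl6-high tumours, against 10.23, 11.00 and 11.33 in Bcl6-low tumours (lowest, median and highest). Again tumour 31 was the only Bcl6-high tumour that overlapped. The difference was 1.31 (SE 0.29, limma adjusted p = 0.036). Jchain, which joins the chains of secreted IgM and IgA, averaged 11.56 ± 1.57 in Bcl6-high and 8.38 ± 1.76 in Bcl6-low tumours (SD, n = 8 each), with a difference of 3.17 (SE 0.77, limma adjusted p = 0.046). Without tumours 2, 18 and 27, Xbp1 and Jchain were not called, with differences of 1.03 and 2.48 (limma adjusted p of 0.12 and 0.20). Irf4, a plasma cell regulator named after its value was seen, was not called and differed by 0.09 (SE 0.43, limma adjusted p = 0.92).

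**Figure D2:**
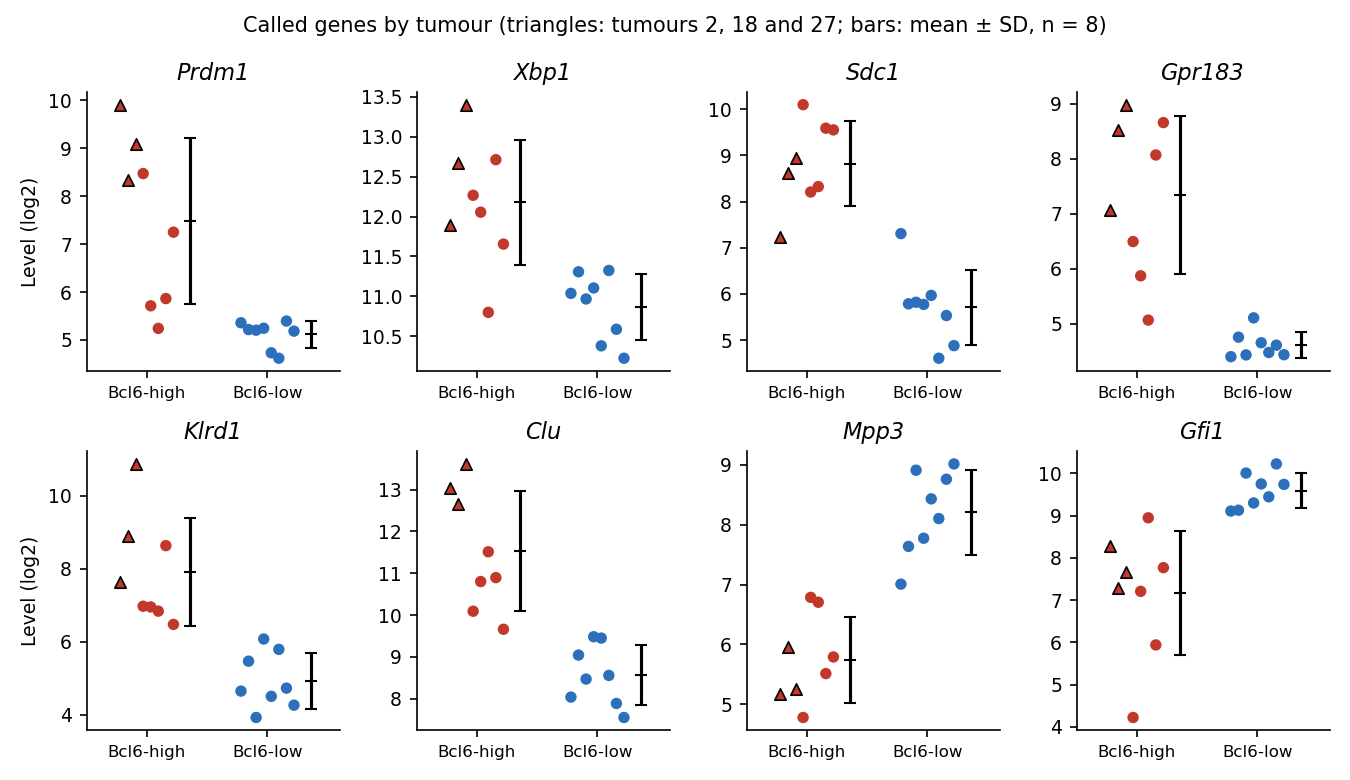
Log2 level of 8 called genes in each tumour, with 8 Bcl6-high tumours on the left and 8 Bcl6-low tumours on the right of each panel. Triangles mark the tumours 2, 18 and 27, and bars give the mean ± SD. The Sdc1 triangles lie at 7.24 to 8.95, while the other 5 Bcl6-high tumours lie at 8.21 to 10.10, and the Clu triangles lie at 12.66 to 13.61, above the other 5 Bcl6-high tumours.

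Several germinal centre genes were far higher in tumours 18 and 27 than in the rest of the Bcl6-high group. Of 14 germinal centre genes tested, Klhl6 alone rose, and 5 were higher and 1 lower at an unadjusted p under 0.05. Rgs13, a regulator of chemokine receptor signalling, read 12.31 in tumour 18, 11.63 in tumour 27, 7.11 in tumour 7, 4.96 in tumour 32, 4.06 in tumour 13, 2.99 in tumour 2, 2.96 in tumour 22 and 2.74 in tumour 31. In Bcl6-low tumours it ran from 2.77 to 4.24 with a median of 2.88. The difference of 2.98 (SE 1.28) was not called (limma adjusted p = 0.18).

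Gcsam, a germinal centre signalling and motility gene, read 10.37 in tumour 18 and 9.38 in tumour 27, then 3.24 to 5.59 in the other 6 Bcl6-high tumours, against 2.95 to 3.71 in Bcl6-low tumours. Mef2b, a transcription factor that activates Bcl6 in human germinal centre cells, read 11.73 and 10.94 in tumours 18 and 27, then 5.58 to 6.38 in the other 6, against 5.73 to 6.17 in Bcl6-low tumours. Mybl1, a Myb family factor of germinal centre cells, read 9.94 and 9.92 in these tumours, then 4.18 to 5.49 in the other 6, against 4.43 to 5.68 in Bcl6-low tumours. These 3 genes were not called, with limma adjusted p of 0.17, 0.34 and 0.36, and for Mef2b and Mybl1 the other 6 tumours overlapped the Bcl6-low range.

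The mean level of the 14 genes was 10.95 in tumour 18 and 10.75 in tumour 27, and 7.20 to 7.99 in the other Bcl6-high tumours, against 7.40 to 7.68 in Bcl6-low tumours. Tumour 2, with Bcl6 at 10.23, had a germinal centre mean of 7.69. Of the 14 genes, 12 in tumour 18 and 11 in tumour 27 exceeded every Bcl6-low tumour, compared with 3 to 6 in each of the other Bcl6-high tumours. The share of all genes that did so in each tumour was not counted, nor were list genes below every Bcl6-low tumour. The counts therefore carry no measure of what any gene list would give. Klhl6, a gene that germinal centre formation needs, differed by 1.28 (SE 0.27, limma adjusted p = 0.032) and ran from 10.53 to 12.45 in Bcl6-high tumours, against 9.50 to 10.65 in Bcl6-low tumours.

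Rassf6 was the germinal centre list member with the largest difference downward, -2.56 (SE 0.89, limma adjusted p = 0.11, not called). It read 10.53 and 10.48 in tumours 18 and 27 but 4.55 in tumour 2, 4.65 in tumour 32, 5.21 in tumour 22 and 5.87 in tumour 31, while the Bcl6-low tumours ran from 8.87 to 11.09. Basp1 and Fas, a membrane signalling gene and a death receptor gene, were higher in tumour 2 as well: Basp1 read 13.11, 13.18 and 10.98 and Fas 8.98, 8.40 and 7.97 in tumours 18, 27 and 2. The Bcl6-low tumours reached at most 8.57 for Basp1 and 5.25 for Fas, and neither gene was called (limma adjusted p of 0.083 and 0.11).

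**Figure D3:**
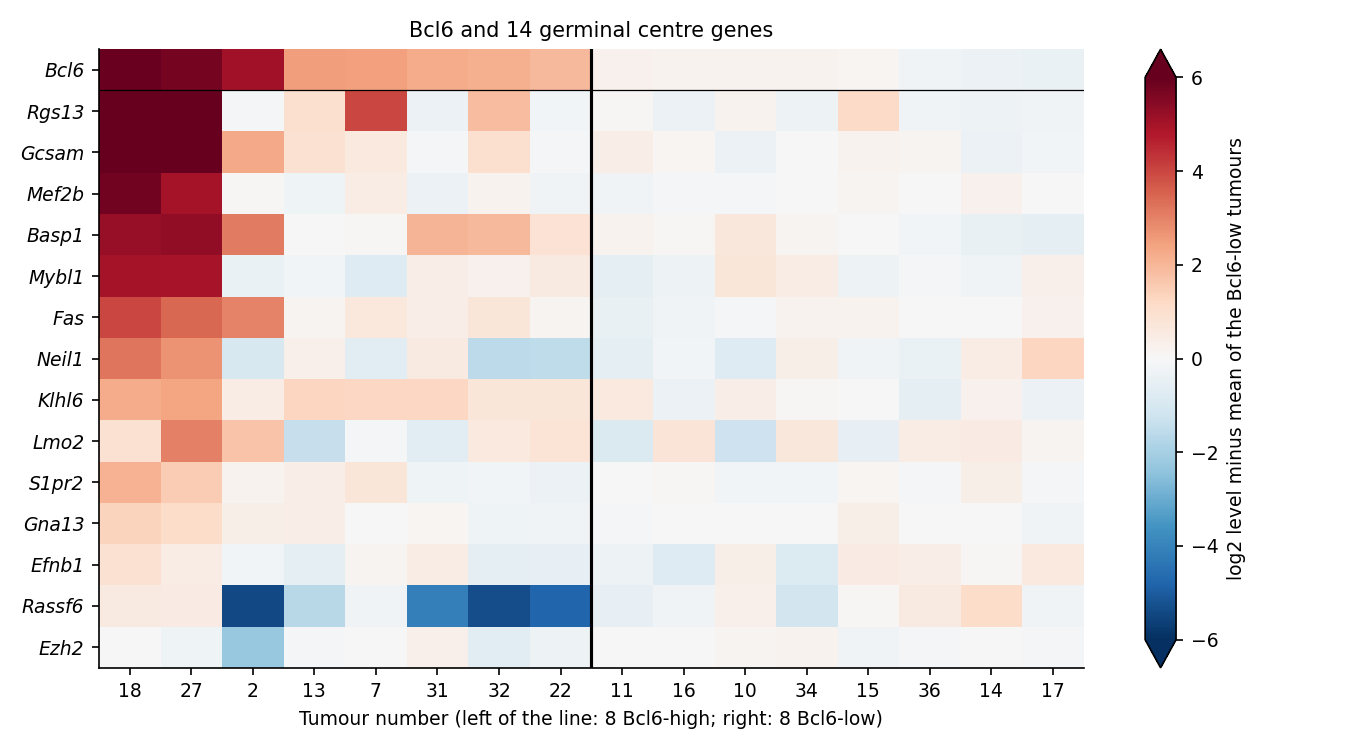
Bcl6 (top row) and 14 germinal centre genes (rows) in 8 Bcl6-high tumours (left of the line) and 8 Bcl6-low tumours (right), as log2 level minus the mean of the Bcl6-low tumours. The colour scale ends at 6, and values beyond it take the end colour. Tumours 18 and 27 are red for most genes, and tumour 2 is pale for Rgs13, Mef2b and Mybl1.

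Of 19 tested genes reported as targets of BCL6 repression, 2 rose (Gpr183 and Prdm1), none fell, and at an unadjusted p under 0.05 there were 8 higher and 1 lower. The median difference of the list was 0.66, and 0.14 over the other 5 Bcl6-high tumours alone. Gpr183, the oxysterol receptor that guides B cells to the outer follicle, had 5.06, 7.57 and 8.98 in Bcl6-high tumours, (lowest, median and highest), against a median of 4.54 and a highest value of 5.10 in Bcl6-low tumours. Tumour 31 was the only Bcl6-high tumour within the Bcl6-low range, and the difference was 2.73 (SE 0.48, limma adjusted p = 0.022).

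Cxcl10, a chemokine gene, and Cd69, an activation antigen gene, differed by 2.76 (SE 0.75, limma adjusted p = 0.062) and 2.35 (SE 0.61, limma adjusted p = 0.056), and were not called. Cdkn1a, the cell cycle inhibitor gene p21, differed by 1.03 (SE 0.32) and Ccnd2, the cyclin D2 gene, by 0.97 (SE 0.65), with limma adjusted p of 0.090 and 0.38. The 1 lower target was Atr, a DNA damage kinase gene, at -0.51 (SE 0.14, limma adjusted p = 0.068). Atr averaged 8.93 ± 0.37 in Bcl6-high and 9.44 ± 0.15 in Bcl6-low tumours (SD, n = 8 each).

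Of 16 corepressors and partners of BCL6 none was called, and at an unadjusted p under 0.05 there were 1 higher (Mta3) and 3 lower (Ctbp1, Tbl1x and Sin3a), with a list median of -0.07. Mta3, a subunit of the NuRD complex that BCL6 recruits, differed by 0.95 (SE 0.41), Ctbp1 by -0.29 (SE 0.13), Tbl1x by -0.29 (SE 0.09) and Sin3a by -0.27 (SE 0.09). Bcor, the corepressor that binds the BTB domain, averaged 8.33 ± 0.40 in Bcl6-high and 8.76 ± 0.70 in Bcl6-low tumours (SD, n = 8 each) and was not called (limma adjusted p = 0.34). Of the 14 other BTB zinc finger genes tested none was called, with a median difference of 0.00.

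Among 16 regulators of Bcl6 transcription, Il21r rose, none fell, and 6 were higher at an unadjusted p under 0.05. Il21r, the receptor of the helper T cell cytokine interleukin 21, had 6.50, 8.16 and 9.09 in Bcl6-high tumours, against 5.94, 6.46 and 6.78 in Bcl6-low tumours. Its difference was 1.55 (SE 0.31, limma adjusted p = 0.030), with tumour 22 alone in the Bcl6-low range. Foxo1, a forkhead factor that promotes Bcl6 transcription, differed by 0.92 (SE 0.24, limma adjusted p = 0.054) and Stat3, a signal transducer of interleukin 21, by 0.95 (SE 0.30, limma adjusted p = 0.089), and neither was called. Stat5a, which carries the interleukin 7 signal, averaged 7.76 ± 0.51 in Bcl6-high and 8.01 ± 0.13 in Bcl6-low tumours, and Il7r, the interleukin 7 receptor gene, 9.75 ± 1.34 in Bcl6-high and 7.98 ± 1.26 in Bcl6-low tumours (SD, n = 8 each). Neither was called, with limma adjusted p of 0.44 and 0.11.

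Of the 5 measured genes on each side of Bcl6 on chromosome 16, none was called. The nearest on one side, Lppos and Lpp, differed by 0.84 (SE 0.23) and 1.31 (SE 0.36), each with a limma adjusted p of 0.063. Lpp, which encodes a focal adhesion protein, read 9.92, 10.90 and 10.05 in tumours 18, 27 and 2 and 8.16 to 8.52 in the other 5 Bcl6-high tumours, against 7.49 to 8.13 in Bcl6-low tumours. The groups did not overlap for this gene, although its difference was not called. Rtp4, an interferon-inducible gene on the other side, differed by 2.06 (SE 0.60, limma adjusted p = 0.075).

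Genes of T cells and natural killer cells were among the rises. Of 12 T cell genes tested, 5 rose (Cd5, Cd3d, Cd28, Lat and Cd8a, the last named after its value was seen), none fell, and 10 were higher at an unadjusted p under 0.05. The list median was 1.89, and 1.32 over the other 5 Bcl6-high tumours. Cd3d, a chain of the T cell receptor complex, had 6.42, 8.20 and 11.37 in Bcl6-high tumours, against 5.29, 6.05 and 6.58 in Bcl6-low tumours, and differed by 2.60 (SE 0.58, limma adjusted p = 0.036). Cd28, the costimulatory receptor, had 5.58, 5.87 and 8.87 in Bcl6-high tumours, against 3.57, 4.31 and 4.95 in Bcl6-low tumours, so its groups did not overlap. Its difference was 2.47 (SE 0.48, limma adjusted p = 0.029), and Cd5 and Cd8a did not overlap between the groups either.

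The mean level of the T cell list was 6.36 to 9.42 in Bcl6-high and 5.37 to 6.36 in Bcl6-low tumours, and its summed linear level 1882 to 11785 in Bcl6-high and 975 to 2606 in Bcl6-low tumours. Of 10 cytotoxic and natural killer genes, Ccl5, Klrd1 and Nkg7 rose and none fell. Klrd1, which encodes the receptor chain CD94, had 6.47, 7.31 and 10.86 in Bcl6-high tumours, against 3.93, 4.69 and 6.07 in Bcl6-low tumours, with no overlap. Its difference was 2.98 (SE 0.54, limma adjusted p = 0.024). Tumour 18 had a list mean of 7.84, tumour 27 of 8.24 and tumour 2 of 9.26, with at most 6.12 in the other Bcl6-high tumours, against 4.47 to 5.55 in Bcl6-low tumours. Ncr1, a natural killer cell receptor gene named after its value was seen, averaged 4.25 ± 0.40 in Bcl6-high and 4.10 ± 0.22 in Bcl6-low tumours (SD, n = 8 each).

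T follicular helper cells also express Bcl6. Of 12 genes of these cells none was called, and 7 were higher at an unadjusted p under 0.05, with a median difference of 0.94. Cxcr5, the receptor that brings lymphocytes into follicles, averaged 6.82 ± 2.24 in Bcl6-high and 4.54 ± 0.59 in Bcl6-low tumours, and Icos, a costimulatory receptor, 7.02 ± 1.52 in Bcl6-high and 5.45 ± 0.18 in Bcl6-low tumours (SD, n = 8 each). The helper cell cytokine gene Il21 differed by 0.06 and the CD40 ligand gene Cd40lg by -0.04. How much of the Bcl6 signal came from such cells was not tested.

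Of 7 genes of follicular dendritic cells and lymphoid stroma, Clu and Mfge8 rose and all 7 were higher at an unadjusted p under 0.05. Clu, which encodes clusterin and is abundant in follicular dendritic cells, had 9.66, 11.20 and 13.61 in Bcl6-high tumours, against 7.55, 8.51 and 9.48 in Bcl6-low tumours. Its groups did not overlap, and the difference was 2.97 (SE 0.52, limma adjusted p = 0.022). Mfge8, an opsonin gene of these cells, differed by 1.79 (SE 0.42, limma adjusted p = 0.040). Of 13 macrophage genes none was called and 7 were higher at an unadjusted p under 0.05. Of 10 neutrophil genes none was called. Of 9 dendritic cell genes Itgax, an integrin gene, rose by 2.56 (SE 0.59, limma adjusted p = 0.039), all 9 had higher means in Bcl6-high tumours, and 5 were higher at an unadjusted p under 0.05. The dendritic cell mean was 9.17 in tumour 32 and 6.45 to 8.46 in the other Bcl6-high tumours, against 6.03 to 6.54 in Bcl6-low tumours. Tumour 32 also had the lowest pan B cell mean of the 16 tumours, 9.16, and what part its cell mix has in the calls was not tested.

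Of 13 pan B cell genes none was called, with 1 higher and 1 lower at an unadjusted p under 0.05 and a median difference of -0.12. Cd79b, a chain of the B cell receptor, averaged 12.21 ± 0.55 in Bcl6-high and 12.47 ± 0.24 in Bcl6-low tumours, and Ebf1, a B lineage factor, 9.81 ± 0.77 in Bcl6-high and 10.35 ± 0.44 in Bcl6-low tumours (SD, n = 8 each). The mean of the list was 9.16 to 10.62 in Bcl6-high and 9.62 to 10.42 in Bcl6-low tumours. Of 15 precursor B cell genes and 19 mature B cell genes none was called.

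Other programmes gave few or no calls. The 9 MHC class II genes had a median difference of 1.28, with 7 higher at an unadjusted p under 0.05, and 13 of 15 interferon response genes were higher at that level, with a median of 1.23, but no gene of either list was called. Among 15 genes of NF-kB subunits and targets 11 were higher at that level and Traf1, a TNF receptor adaptor, rose by 2.18 (SE 0.50, limma adjusted p = 0.038). The NF-kB list median was 1.16. With the T cell and macrophage list means as covariates, the medians were 0.19 for MHC class II, -0.41 for interferon response and -0.02 for NF-kB genes. All 19 Myc target and ribosome biogenesis genes and all 18 G2/M genes had lower means in Bcl6-high tumours, with medians of -0.50 and -0.53, and none was called. At an unadjusted p under 0.05, 8 of the 19 and 4 of the 18 were lower, against 11.5% of all genes. Without tumours 2 and 18, 9 of the 19 and 10 of the 18 were lower at that level, against 8.45% of all genes. There 1 Myc target gene was called as fallen. Without tumours 2, 18 and 27 the medians of the Myc target and G2/M lists were -0.21 and -0.21. With the T cell and macrophage covariates they turned to 0.31 and 0.53. Tumour 2 alone moved the G2/M difference of list means to -0.23 when left out, against -0.55 with it, and that of the Myc target list to -0.28, against -0.51. Myc itself ran from 8.19 in tumour 2 to 12.03 in Bcl6-high tumours, against 12.07 to 12.63 in Bcl6-low tumours, so the ranges did not overlap, and its difference was -1.10 (SE 0.42, limma adjusted p = 0.14). Of 18 p53 pathway genes Sesn2, a stress-induced gene, rose by 1.00 (SE 0.22, limma adjusted p = 0.035).

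**Figure D4:**
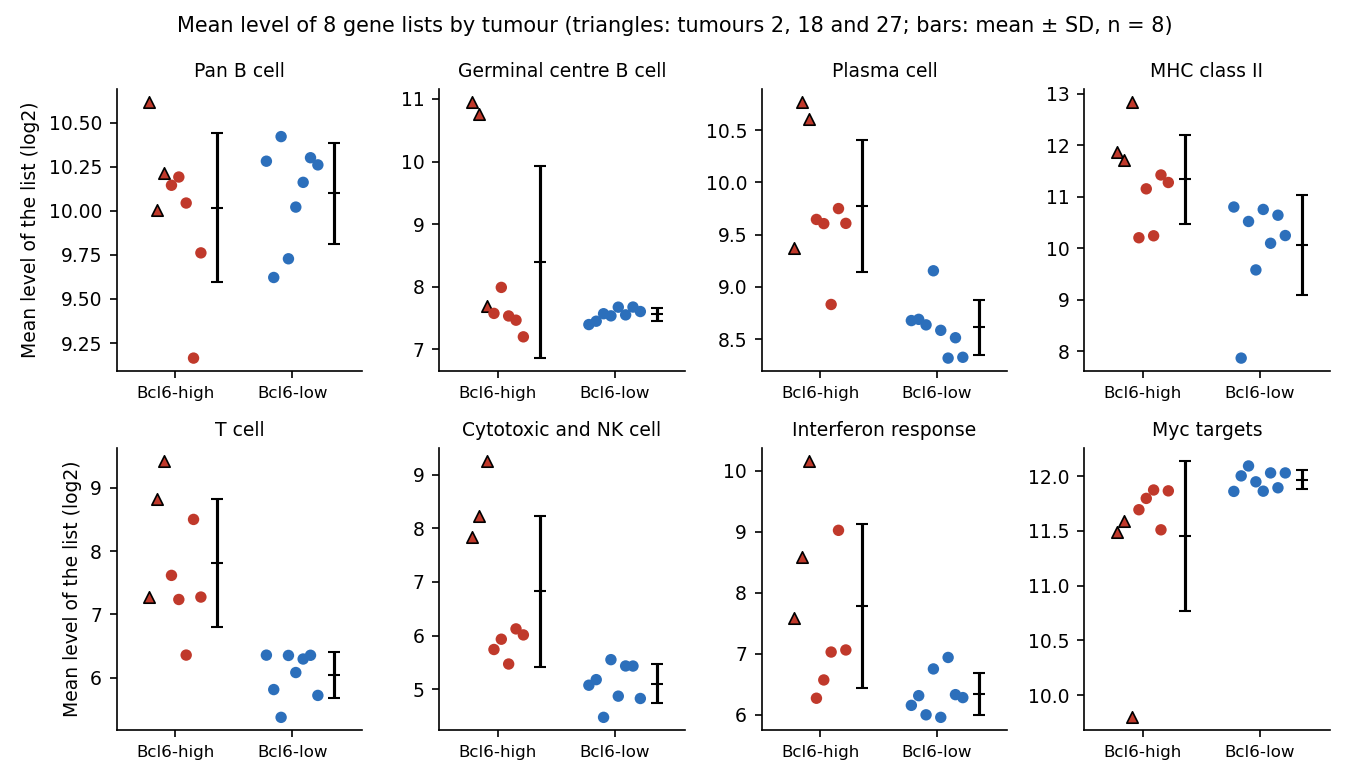
Mean log2 level of 8 gene lists in each tumour, with 8 Bcl6-high tumours on the left and 8 Bcl6-low tumours on the right of each panel, triangles for tumours 2, 18 and 27 and bars for the mean ± SD. The germinal centre mean is high in 2 Bcl6-high tumours, the T cell mean is 6.36 to 9.42 in Bcl6-high and 5.37 to 6.36 in Bcl6-low tumours, and the pan B cell ranges overlap.

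The largest rise was that of Cst7. This gene, which encodes an inhibitor of cathepsins in cytotoxic and myeloid cells, had 5.50, 7.29 and 11.84 in Bcl6-high tumours, against 3.98, 4.59 and 4.95 in Bcl6-low tumours. Its difference was 3.43 (SE 0.80, limma adjusted p = 0.041). Ms4a4b, a membrane protein gene of T cells, rose by 3.41, the secreted phospholipase gene Pla2g2d by 3.31, the desmosomal cadherin gene Dsg2 by 3.16 and Ncf1, a subunit of the phagocyte oxidase, by 3.05. Dsg2 did not overlap between the groups, with 6.07 to 10.07 in Bcl6-high and 4.13 to 5.70 in Bcl6-low tumours. The chemokine gene Ccl5, the lysophosphatidylserine receptor gene Gpr174, the T cell receptor segment Trbv1, Ms4a4c, the ceramide synthase gene Cers6 and Ipcef1 rose by 2.88 to 3.05.

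Mpp3, a membrane scaffold gene, had the smallest adjusted p of the falls named here. It had 4.78, 5.65 and 6.79 in Bcl6-high tumours, against 7.01, 8.27 and 9.01 in Bcl6-low tumours, with no overlap, and fell by 2.46 (SE 0.33, limma adjusted p = 0.0076). Gfi1, a zinc finger repressor of blood cell development, had 4.22, 7.48 and 8.95 in Bcl6-high tumours, against 9.11, 9.59 and 10.22 in Bcl6-low tumours, also with no overlap. It fell by 2.42 (SE 0.50, limma adjusted p = 0.032), and was lowest in tumour 13 rather than in the 3 tumours highest in Bcl6.

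Lrrn4, a leucine-rich repeat gene, had 3.35, 5.50 and 7.81 in Bcl6-high tumours, against 7.14, 8.24 and 8.49 in Bcl6-low tumours, and fell by 2.57 (SE 0.61, limma adjusted p = 0.042). Mapk12, a p38 kinase gene, fell by 2.33 (SE 0.42), the small GTPase gene Rasl10a by 2.16 (SE 0.42), Cabcoco1 by 2.16 (SE 0.32) and the carbonyl reductase gene Cbr3 by 2.06 (SE 0.46). The sulfatase gene Arsi, the AMP kinase subunit gene Prkag3, the homeobox gene Hesx1 and Islr2 fell by 1.73 to 1.88. Rtkn2, the catenin family gene Arvcf, the ubiquitin ligase subunit gene Btrc and Crybg2 fell by 1.31 to 1.56. Btrc did not overlap between the groups, with 5.45 to 7.19 in Bcl6-high and 7.45 to 8.40 in Bcl6-low tumours.

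With the T cell and macrophage list means as covariates, limma called no gene, and 897 genes had an unadjusted p under 0.05 (4.93% of genes). In the 16 tumours, 60.7% of the variance of the T cell mean and 20.1% of that of the macrophage mean lay between the 2 groups. The median size of the difference among the 328 genes was 0.49 with the covariates and 1.30 without, and the median SE 0.35 and 0.28, while 323 of the 328 kept their direction. The genes differed in this respect. Sdc1 differed by 2.64 (SE 0.66) with the covariates, Mapk12 by -2.92 (SE 0.68), Cbr3 by -2.30 (SE 0.66) and Mpp3 by -1.78 (SE 0.49), whereas Xbp1 differed by 0.11 (SE 0.29) and Trbv1 by 0.01 (SE 0.47). With the covariates the median difference was 0.03 for the plasma cell list and 0.61 for the germinal centre list. Members of the T cell list, such as Cd3d, are part of the covariate, so their differences shrink by construction. What part the mix of cells has in each difference was not tested beyond this.

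The 17 B lymphomas of neither group gave a measure that the groups did not use. Bcl6 spanned 1.51 log2 units there, and no gene followed it at an adjusted p under 0.05 with limma (0% of genes), while 937 had an unadjusted p under 0.05 (5.15%). Of the 328 called genes, 303 had a slope of the same sign as their difference (92.4%, against 64.3% of all genes). A slope of the same sign with an unadjusted p under 0.05 was seen for 65, and none had such a slope of the opposite sign. The shares were 208 of the 220 genes that rose and 95 of the 108 that fell. Genes share samples and cell types, so they are not independent replicates of this result.

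Among the genes named above, Cd28 had a slope of 1.28 (SE 0.35), Gpr183 of 1.16 (SE 0.39), Trbv1 of 1.72 (SE 0.52) and Cd3d of 1.18 (SE 0.41) in the 17 tumours. Btrc had a slope of -0.83 (SE 0.31). Mpp3, by contrast, had a slope of 0.24 (SE 0.67), opposite in sign to its difference, and Gfi1 one of -0.38 (SE 0.31). These slopes had limma adjusted p of 0.93 to 0.99.

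**Figure D5:**
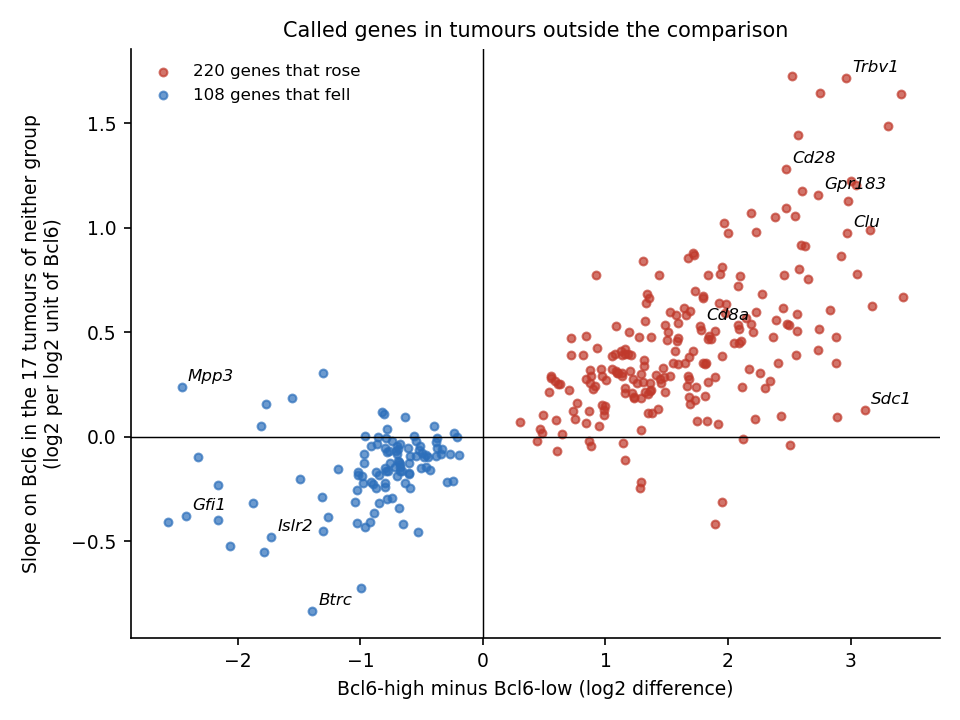
Difference between Bcl6-high and Bcl6-low tumours (log2, horizontal axis) against the slope on Bcl6 in the 17 B lymphomas of neither group (log2 per log2 unit, vertical axis) for the 328 called genes, each a point, in red for the 220 that rose and blue for the 108 that fell. Of the red points 208 lie above 0 and of the blue points 95 below it.

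In the promoter windows, the core motif TTCCTAGAA was found in 2 of 174 genes that rose and had a window in RefSeq (1.15%), in 0 of 83 that fell, and in 53 of 14450 genes tested (0.367%). The palindrome TTCNNNGAA, which contains the core, was found in 17 of the 174 (9.77%), in 10 of the 83 (12%) and in 1238 of the 14450 (8.57%). The 2 genes with the core were Cd3d, shown because its level rose, and Gimap8, a GTPase gene of lymphocytes named for this match after its value was seen, with the core in capitals, plus strand, assembly GRCm38.p6.
Cd3d, chr9:44981536-44981835: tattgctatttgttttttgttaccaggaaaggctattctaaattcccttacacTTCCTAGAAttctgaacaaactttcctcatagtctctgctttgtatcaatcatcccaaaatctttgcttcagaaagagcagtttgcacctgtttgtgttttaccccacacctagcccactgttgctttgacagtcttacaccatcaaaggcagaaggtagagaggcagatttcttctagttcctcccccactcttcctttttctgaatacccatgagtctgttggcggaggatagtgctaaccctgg
Gimap8, chr6:48647111-48647410: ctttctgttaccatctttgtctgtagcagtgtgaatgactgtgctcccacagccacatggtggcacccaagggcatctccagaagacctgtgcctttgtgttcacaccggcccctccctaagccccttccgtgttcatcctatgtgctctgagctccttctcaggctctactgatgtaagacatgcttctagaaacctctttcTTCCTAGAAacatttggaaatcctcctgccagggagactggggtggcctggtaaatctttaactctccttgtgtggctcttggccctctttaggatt
The match begins at -197 in Cd3d and at -47 in Gimap8. Gimap8 averaged 8.46 ± 1.64 in Bcl6-high and 5.99 ± 0.49 in Bcl6-low tumours (SD, n = 8 each), a difference of 2.48 (SE 0.56, limma adjusted p = 0.038).

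Salivary gland genes, a sign of neighbouring tissue, had a list mean of 11.23 in tumour 13 and 11.67 in tumour 7 among the Bcl6-high and 8.84 in tumour 15 among the Bcl6-low tumours, against at most 4.66 in the other 13. The difference between 3' and 5' control probe sets, a sign of RNA quality, was 0.09 ± 0.06 in Bcl6-high and 0.07 ± 0.05 in Bcl6-low tumours (SD, n = 8 each), and the 16 arrays correlated at 0.897 to 0.991. In tumour 2, Myc was at 8.19 and the G2/M list mean at 8.26, against 10.62 to 11.23 in the other 15 tumours.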

How the data were processed

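Total RNA of 39 lymphomas was measured on 1 array each. The deposited values are log2 probe set levels that the authors made with RMA (background correction, quantile normalization and summary per probe set) in the R package affy, per the submitters' processing notes. Array data have no read depth, and the number of arrays limits the precision. Of 45101 probe sets, 34945 named 1 gene in the platform annotation, 932 named several and were left out, and 34741 matched an Entrez identifier. Each of 18193 genes was represented by its probe set with the highest mean over the 39 arrays. Of the 328 called genes, 197 had several probe sets, which correlated at 0.2 or more in 156.

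The members and the gene lists were chosen with earlier results of these data known. Groups were formed on Pou2af1 and Bcl6, which were then left out, leaving 18191 genes. Differences, always Bcl6-high minus Bcl6-low, were tested with lmFit and eBayes with a trend in limma 3.58.1 (R 4.3.3), two-sided, with Benjamini-Hochberg adjustment over all genes and a threshold of 0.05. The slope on Bcl6 in the 17 B lymphomas of neither group was fitted likewise. The fit was also run on simulated data, with independent normal values and the SDs of the Bcl6-low group in every array. That setting lacks the wider spread among Bcl6-high tumours and any correlation between genes, so it does not check the calls made here. Genes named are the 15 largest rises and falls and up to 4 called members per list. Also named are members of the germinal centre, BCL6 target, corepressor and regulator lists. The rest are neighbours of Bcl6, and pan B cell, T follicular helper and sex-linked genes. Others are said to be named after their values were seen. The alternatives were other groups, other probe set choices, other variance settings, covariates and tumours left out.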

Additional observations from a re-analysis of the deposited data

Results flagged for a closer look

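Single tumours stood apart from the other 7 of their group by Dixon's test in 9 of 150 groups of 8 checked, and chance flags about 1 in 20 groups. In Bcl6-high tumours, Myc was low in tumour 2 at 8.19, with the next tumour at 10.72. Dcn, a stromal proteoglycan gene, was high in tumour 2 at 12.92, with the next at 11.45. Cd79b was low in tumour 32 at 11.00, with the next at 11.93.

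In Bcl6-low tumours, tumour 15 was high for Rgs13 at 4.24, for Cd69 at 6.81 and for Tbl1x at 10.73. Tumour 34 was low for Prkag3 at 5.01 and high for Bcor at 10.45. Tumour 11 was low for Pax5 at 7.13. Tumour 15 was also the Bcl6-low tumour with salivary gland genes, at a list mean of 8.84. What part that tissue has in these values was not tested.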

How the results depend on the processing

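The count of 328 genes moved to 1445 with all B lymphomas in 3 groups, 4390 for the slope on Bcl6 over all 33 B lymphomas, 8 for the 6 highest against the 6 lowest, 3026 with no Pou2af1 minimum, 594 when ranked by the second Bcl6 probe set and 591 with array weights. It moved to 0 with the T cell and macrophage means as covariates, where 897 genes had an unadjusted p under 0.05, to 121 without tumours 2 and 18, and to 63 without tumours 2, 18 and 27, an alternative added after seeing the data. Leaving out 1 tumour at a time gave 7 to 843 calls. The causes were not tested. The other 7 alternatives gave 229 to 478 calls, among them a slope without tumours 2, 18 and 27 that was also added after seeing the data. Another of the 7, a Pou2af1 minimum of 10, selected the same 16 tumours. Its 328 calls were therefore fixed in advance. For the 17 tumours of neither group limma called 0 genes in the 3 alternatives run.

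Of 2375 values of the 75 genes followed under alternatives, 2360 kept their direction. Most alternatives refit largely the same arrays, and 46 of the 75 genes were called in those arrays. Most directions were thus kept by construction, and this count is no independent check. With the covariates the difference turned to -0.0080 for Cd3d, -0.13 for Lat, -0.037 for Traf1, -0.32 for Ccnd2, -0.00027 for Cdkn1a, 0.013 for Ctbp1, -0.20 for Stat3, -0.045 for Rtp4, 0.031 for Cd79b, 0.10 for Pax5, 0.42 for Myc and -0.10 for Cd8a. Without tumours 2, 18 and 27 it turned to -0.032 for Mef2b and -0.095 for Ccnd2, and the slope without them was -0.031 for Mef2b. No paired analysis was possible because the labels give nothing that pairs tumours of the 2 groups. Arrays give no depth, and low probe sets lie near the floor of the scale.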

Other observations

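Families of immune genes, chosen after their values were seen, gave the following differences. Of 8 Gimap genes, GTPases of lymphocytes, 2 rose and 7 were higher at an unadjusted p under 0.05, with a median difference of 1.36. Gimap4 averaged 10.37 in Bcl6-high and 7.62 in Bcl6-low tumours, a difference of 2.75 (SE 0.64, limma adjusted p = 0.040). Of 6 Gbp genes, interferon-induced GTPases, none was called by limma and all 6 were higher at an unadjusted p under 0.05, with differences of 1.20 to 2.99. Of 17 Ms4a genes 5 rose, while the median difference of that family was 0.06. Of 18 Klr genes 1 rose and 8 were higher at that level. Of 9 Slfn genes 1 rose, 4 were higher and 3 were lower at that level. Of 10 genes taken as T cell receptor genes, among them Tradd, an adaptor of another receptor, 2 rose and 6 were higher. Over all genes tested, 1.21% rose and 10.9% were higher at that level.

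Rgs13, of the germinal centre list, was high in some tumours outside both groups, and was picked after its values were seen. It read 10.36 in tumour 12, a B lymphoma in neither group, and 9.83 and 10.50 in tumours 26 and 19, which had Pou2af1 under 8. Other genes of the list went with it only in part. Gcsam read 3.23, 3.16 and 3.12 in tumours 12, 26 and 19, within the Bcl6-low range. Mef2b read 5.91 in tumour 12, but 8.73 and 8.87 in tumours 26 and 19, against 5.73 to 6.17 in Bcl6-low tumours. Of the 14 genes, 2 in tumour 12, 6 in tumour 26 and 4 in tumour 19 exceeded every Bcl6-low tumour, and 5, 2 and 2 lay below every Bcl6-low tumour. The matching shares of all genes were not counted. These tumours entered no comparison between groups.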
